A study of Mus musculus with 10 samples.

Results

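The fatty acid oxidation genes examined here are 32 genes of mitochondrial and peroxisomal β-oxidation, of fatty acid uptake and activation, and of the PPARA response, taken by symbol from the 35275 gene IDs counted in proximal small intestine. All 32 matched a gene ID, and 31 passed the filter on low counts, against 15610 genes that passed it in all. The libraries came from 5 WB-KO mice and 5 WT mice, 1 library per mouse, with counts deposited per gene and no normalization. By the study's methods, WB-KO mice carried a whole-body knockout of *Zip14* (*Slc39a14*), a zinc transporter, and the WT controls were of the same strain, both bred from heterozygous parents and fed a commercial diet ad libitum. The labels say knockout only, while the title of the series speaks of a deletion in enterocytes, and they give an age of 8 to 10 weeks without the sex of a mouse or its last meal. Mice of both sexes were used in the study.

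Long-chain fatty acids are bound to coenzyme A as they enter the cell, carried into mitochondria as carnitine esters, and shortened there in cycles of 4 reactions. Peroxisomes run a related cycle with their own enzymes, mainly on very long and branched chains. PPARA is a nuclear receptor that binds fatty acids and raises the transcription of genes of both organelles, and PPARGC1A is its coactivator. In the small intestine the absorptive enterocytes carry most of this machinery, and its level is known to vary with feeding and with position along the gut.

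About as many of these genes were lower in WB-KO mice as did not pass the test, and few were higher. Of the 31 members tested, 15 were lower and 2 were higher at an adjusted p under 0.05 (edgeR's quasi-likelihood test), and 14 did not pass. Over all 15610 genes tested, 29.9% passed, 16.0% of all genes in the higher direction and 13.9% in the lower. The median log2 fold change (WB-KO over WT) was -0.51 over the members and 0.03 over all genes tested. For 12 of the 31 no WB-KO library overlapped a WT library, against 21.1% of all genes. With a smooth muscle score as a covariate 0 members and 18 genes in all passed, and that score itself did not overlap between the groups. With an epithelial score as a covariate 1 member was higher and 8 were lower, against 13.2% and 9.01% of all genes in that fit. By role, 8 of 16 mitochondrial members were lower and 2 were higher (6 called in all without WT replicate 1), 2 of 3 peroxisomal members were lower, neither of the 2 found in both organelles passed, both regulators were lower, 3 of 4 uptake and activation members were lower, and 0 of the 4 other PPARA targets tested passed (1 of 5 by DESeq2 and by edgeR without a filter, which also tested *Cyp4a10*). The median log2 fold change was -0.50 over the mitochondrial, -1.32 over the peroxisomal and -1.19 over the uptake and activation members.

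**Figure D1:**
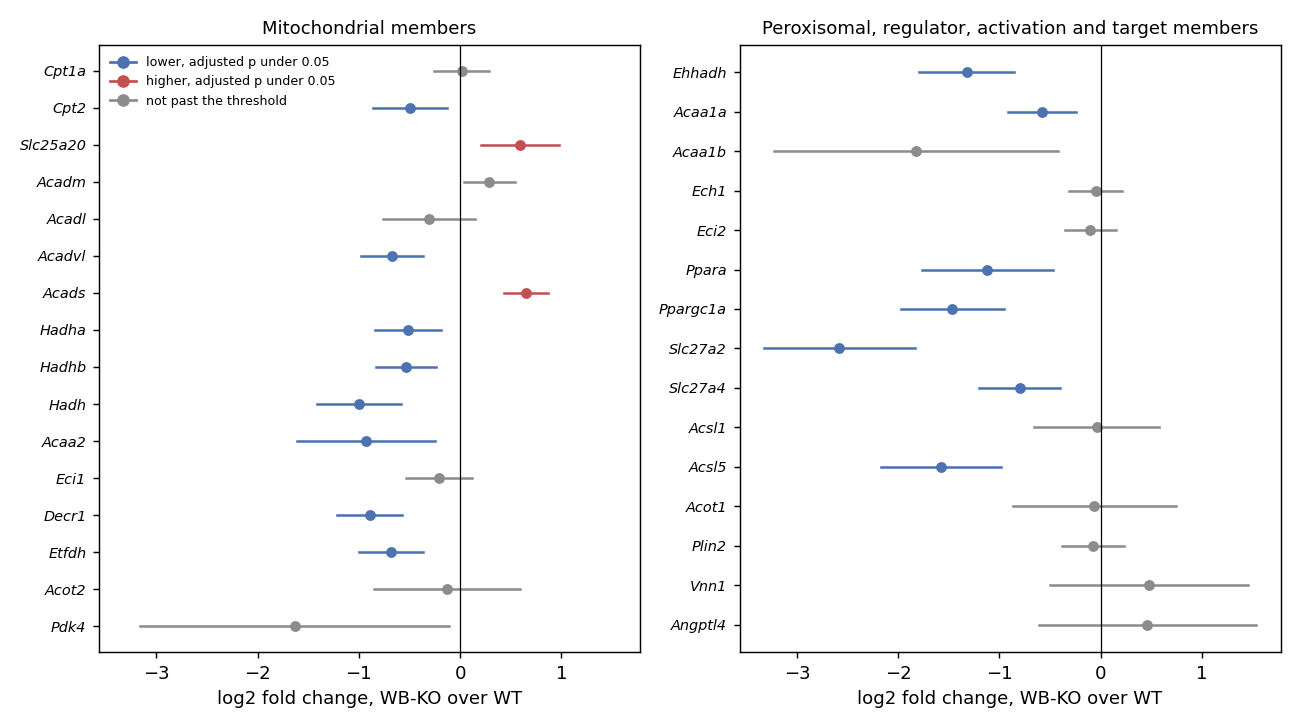
Log2 fold change of WB-KO over WT mice for the 31 members tested, with its 95% confidence interval from the edgeR model (5 mice per group). Points left of 0 are lower in WB-KO mice. *Slc27a2* has the lowest value at -2.58, and *Acads* and *Slc25a20* are the 2 members past the threshold on the right.

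The mice differed in more than these genes. *Slc39a14* had 260 ± 62.5 CPM (counts scaled to library size with TMM factors) in WT and 102 ± 32.8 CPM in WB-KO mice (± SD of 5 mice), with 159.9 CPM in WB-KO replicate 1 and at most 93.6 CPM in the others. Its reads were thus fewer but not absent in WB-KO mice, and counts over the whole gene do not show which part was deleted or separate the deletion from the change in gut markers given next. The counts of a library summed to between 16729787 and 20819678. Summed CPM of 6 ileum markers ranged from 572 to 1335 in WT and from 3901 to 11020.0 in WB-KO mice (5 of 6 genes higher), and that of 8 markers of the proximal intestine from 4104 to 4426 and from 42.5 to 836, the latter in WB-KO replicate 1 (4 of 7 tested lower), so that neither list overlapped between the groups. The bile acid binding protein gene *Fabp6*, a marker of the ileum, had means of 0.778 and 5506 CPM, and the lactase gene *Lct*, a proximal marker, 3532 and 197 CPM. *Lct* had 701 and 280.2 CPM in WB-KO replicates 1 and 2 and at most 3.07 CPM in the other 3, and it did not pass the test (edgeR adjusted p = 0.0632). The WB-KO libraries thus went against the label of proximal intestine in these markers, and position along the gut and genotype cannot be told apart in these samples. Smooth muscle markers (9 of 10 higher) also did not overlap, with 1623 to 2655 and 3593 to 10420.0 CPM, the highest in WB-KO replicate 4. The 10 epithelial markers overlapped, with 14720.0 to 16840.0 and 15720.0 to 23490.0 CPM (5 higher). Adipocyte markers (5 of 8 higher) held 335 to 661 and 158 to 974 CPM, the highest in WB-KO replicate 4. The most abundant of them, *Pck1*, had means of 316 and 125 CPM and hid a rise of others in that sum, since the median log2 fold change of the 8 was 2.55. Macrophage markers (1 of 8 lower) held 253 to 353 and 191 to 338 CPM, liver and pancreas markers (1 of 4 tested higher) 9.77 to 19.7 and 11.4 to 26.5 CPM, and colon markers (0 of 2 tested) 119 to 228 and 104 to 1616 CPM. No marker was at 0 in every library. The part of the other markers in the results below was not tested beyond the covariates above, and in whole tissue fewer cells of a type and less RNA per cell cannot be told apart.

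Among the regulators, *Ppara* (ENSMUSG00000022383, plus strand of chromosome 15 from 85734983 to 85802819 in GRCm38) was counted at 38.4, 35.2, 34.3, 36.8 and 46.2 CPM in WT replicates 1 to 5, and at 31.4, 19.1, 16, 7.47 and 14.0 CPM in WB-KO replicates 1 to 5. Every WB-KO library was below every WT library, with WB-KO replicate 1 closest to them. The log2 fold change was -1.12 (standard error [SE] 0.29, edgeR adjusted p = 0.0166), which is 2.17-fold lower. *Ppargc1a* (chromosome 5, minus strand, from 51454250 to 51567726) had 64.7, 60.8, 60.2, 52.5 and 80.2 CPM in WT and 27.8, 33.3, 24.7, 13.7 and 15.8 CPM in WB-KO mice. These groups also stood apart, by a log2 fold change of -1.47 (SE 0.23, edgeR adjusted p = 0.00160). Both were lowest in WB-KO replicate 4 and kept their calls with each of the 10 mice left out in turn, *Ppara* between -1.43 and -0.92. With the smooth muscle covariate neither call was kept and the log2 fold changes were -0.14 and -0.84. With the epithelial covariate that of *Ppara* was -1.73. In that fit fewer members passed, 1 higher and 8 lower in place of 2 and 15 (13.2% and 9.01% of all genes).

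PPARA and its relatives bind a repeat of the half-site AGGTCA with 1 base between the copies. RefSeq promoter windows (GRCm38.p6, from 250 bases before to 50 after a gene's start) matched 27 of the 32 members with 28 windows, and *Acaa2*, *Angptl4*, *Cyp4a10*, *Decr1* and *Vnn1* had no entry. The whole repeat AGGTCANAGGTCA, on either strand, was in 0 of 28 member windows and in 0.0396% of all 32851. Only exact matches were counted, and with 13 such windows in all, 0 of 28 cannot tell the members from other genes. A single half-site was in 5 of the 28 and in 16.3% of all windows. The 5 are shown with up to 12 bases on each side, 5′ to 3′ on the strand of the gene, and the half-site or its reverse complement TGACCT in capitals, since they set members that fell beside members that did not pass.
Slc27a2 (chr2:126552792-126552821, plus strand, in an exon of GENCODE M21): gcaccacgccttTGACCTtttcaacgtggg
Acadvl (chr11:70015498-70015527, minus strand, outside the gene): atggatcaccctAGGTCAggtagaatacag
Cpt1a (chr19:3323195-3323224, plus strand, in an intron): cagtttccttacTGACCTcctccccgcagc
Plin2 (chr4:86670260-86670289, minus strand, outside the gene): tttcaggaccccTGACCTaagtcagacagc
Acadm (chr3:153944875-153944893, minus strand, outside the gene): gTGACCTtcgggctccggt
The half-sites start 220, 87, 94, 218 and 249 bases before the RefSeq start behind each window, in the order shown. For *Slc27a2* and *Cpt1a* that start lies inside the GENCODE gene, so that the half-site does too. *Slc27a2* and *Acadvl* were lower in WB-KO mice, and the other 3 were not past the threshold. A match says nothing of binding, and sites outside these windows were not searched.

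Other receptors and coregulators of this network were counted from a list of 21 genes. Of the 20 tested, 1 was higher and 9 were lower, against 16.0% and 13.9% of all genes. *Hnf4g*, a nuclear receptor of the gut epithelium, fell by 1.25 on the log2 scale (SE 0.23, edgeR adjusted p = 0.00318), and *Ppargc1b*, a relative of *Ppargc1a*, fell by 1.0 (adjusted p = 0.0142). The abundant receptor *Hnf4a* was not past the threshold (860 ± 71.4 and 1037 ± 244 CPM, ± SD of 5 mice), nor were *Ppard*, *Pparg* or *Rxra*, the partner of the PPAR receptors (log2 fold changes -0.22, -0.49 and -0.07). *Nr1h4*, the bile acid receptor, was the 1 higher gene, from 28.5 ± 1.59 to 115.6 ± 34.9 CPM (± SD of 5 mice), a log2 fold change of 2.02 (adjusted p = 0.000136 by edgeR). The number of these genes past the threshold was 5 without WT replicate 1 and 6 without WT replicate 2, against 21.2% and 20.2% of all genes in those fits.

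*Slc27a2*, of fatty acid activation, had the largest fall of the members tested. It encodes a very long-chain acyl-CoA synthetase of the endoplasmic reticulum and the peroxisome (chromosome 2, plus strand, from 126552407 to 126588243). Its CPM was 104, 159.5, 174, 72.5 and 72.1 in WT and 33.1, 16.7, 11.2, 19.4 and 17.0 in WB-KO replicates 1 to 5. The lowest WT library held more than 2 times the counts of the highest WB-KO library. The log2 fold change was -2.58 (SE 0.34, edgeR adjusted p = 0.000659), or 5.98-fold lower, and it was -1.99 and not past the threshold with the smooth muscle covariate.

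*Acsl5*, the main long-chain acyl-CoA synthetase of enterocytes (chromosome 19, plus strand, from 55251938 to 55297720), had 1769, 1995, 2038, 1259 and 1524 CPM in WT and 968, 495, 496, 319.5 and 599 CPM in WB-KO mice. The groups did not overlap, with WB-KO replicate 1 highest and replicate 4 lowest in their group, and the log2 fold change was -1.58 (SE 0.27, edgeR adjusted p = 0.00234). The smooth muscle covariate brought it to -0.58, not past the threshold. *Slc27a4*, the fatty acid transport protein of the brush border cell, fell from 1211 ± 157 to 695 ± 190.4 CPM (± SD of 5 mice; log2 fold change -0.80, adjusted p = 0.00872 by edgeR). Its WB-KO replicate 1 had 1029 CPM and lay within the WT range, while the other 4 lay below it. *Acsl1*, the synthetase that predominates in liver and fat, had 74.9 ± 13.4 and 72.7 ± 31.0 CPM, a log2 fold change of -0.04 with a 95% interval from -0.66 to 0.57. Per kilobase of exon, the level in WT mice was highest for *Acsl5* among all members (353 CPM per kilobase) and next for *Slc27a4* (274), against 7.14 for *Acsl1* and 31.0 for *Slc27a2*.

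**Figure D2:**
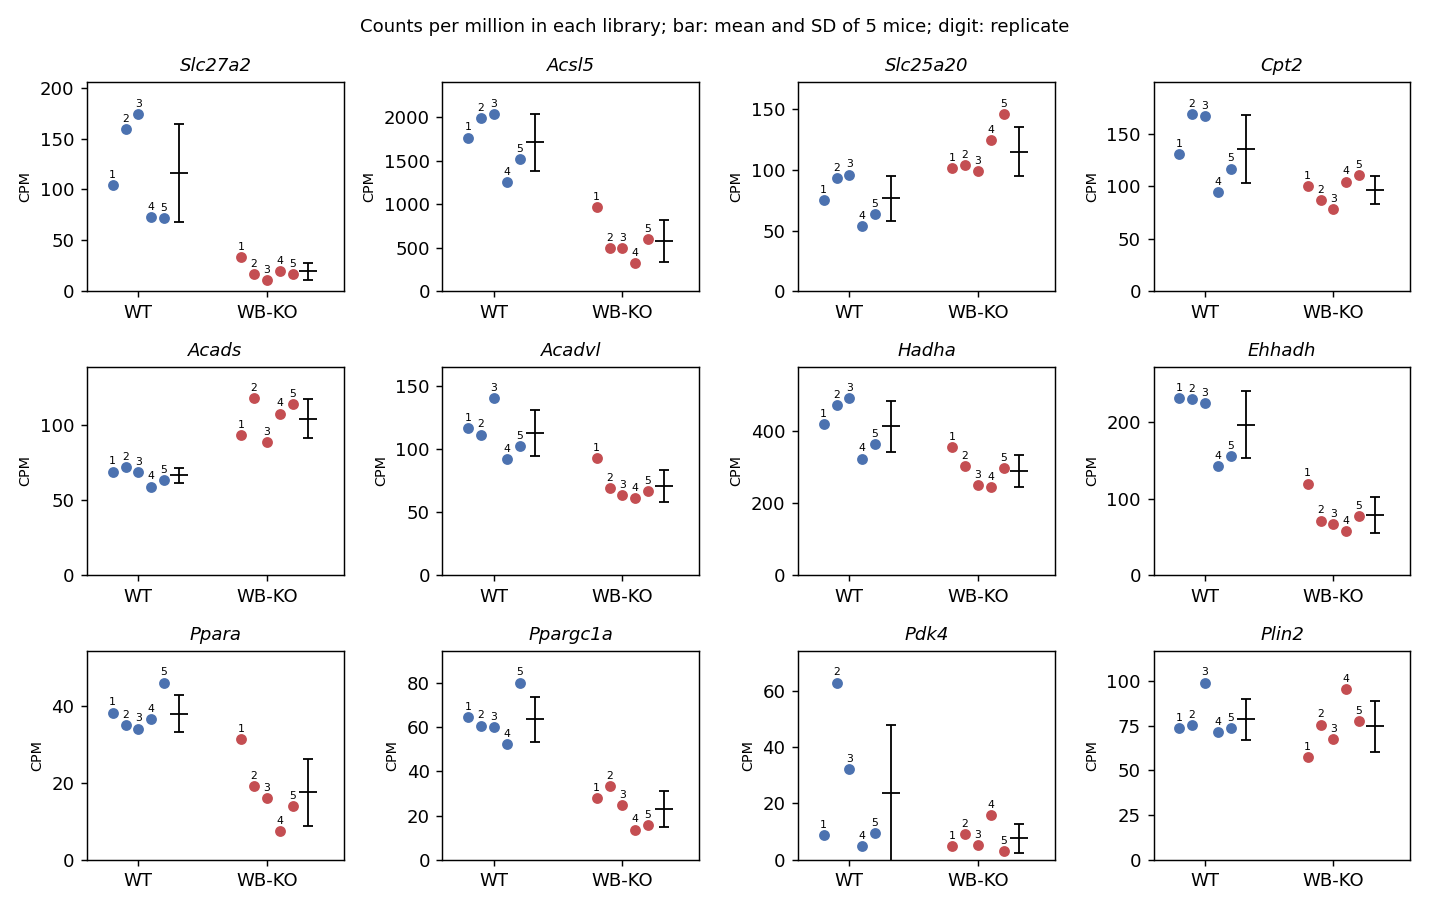
CPM (linear axis from 0) of 12 members in each library, with the replicate number beside each point and the mean and SD of 5 mice as a bar (the lower end of the WT bar of *Pdk4* is cut at 0). *Slc27a2*, *Acsl5*, *Slc25a20*, *Acads*, *Ehhadh*, *Ppara* and *Ppargc1a* do not overlap between the groups, while *Cpt2*, *Acadvl*, *Hadha*, *Pdk4* and *Plin2* do.

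The carnitine shuttle did not move as a unit. *Cpt1a*, which makes acylcarnitine at the outer membrane and sets the rate of entry, had 134, 148, 163, 124.5 and 169 CPM in WT and 186, 153, 146, 131 and 131 CPM in WB-KO mice. The groups overlapped, with WB-KO replicate 1 above all WT libraries and WT replicate 4 below all WB-KO libraries, a log2 fold change of 0.02 and a 95% interval from -0.25 to 0.29. *Slc25a20*, the carrier that brings acylcarnitine through the inner membrane, had 75.3, 93.3, 96.3, 53.9 and 63.7 CPM in WT and 101, 104, 99.4, 125 and 146 CPM in WB-KO mice. All its WB-KO libraries were above all WT libraries (log2 fold change 0.59, SE 0.17, edgeR adjusted p = 0.0264). *Cpt2*, which returns the acyl group to coenzyme A inside, had 131, 169, 167, 94.5 and 117 CPM in WT and 101, 86.9, 78.3, 105 and 111 CPM in WB-KO mice. Its groups overlapped, and the log2 fold change was -0.49 (SE 0.17, edgeR adjusted p = 0.0437). The call of *Slc25a20* was lost without WT replicates 1, 4 or 5 or WB-KO replicates 4 or 5, left out 1 at a time (adjusted p between 0.0512 and 0.0611), and scaled to the counts of the epithelial markers (0.244), and that of *Cpt2* was kept only when WT replicate 4, WT replicate 5 or WB-KO replicate 5 was left out.

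A ratio of 2 genes within a library does not depend on scaling. The log2 ratio of *Slc25a20* to *Cpt2* counts was -0.83 ± 0.038 in WT and 0.25 ± 0.149 in WB-KO mice (± SD of 5 mice). It ranged from -0.88 to -0.79 among WT libraries, although the highest and lowest WT CPM differed 1.78-fold for *Slc25a20* and 1.79-fold for *Cpt2*, and from 0.01 to 0.40 among WB-KO libraries, with replicate 1 the lowest. The pair was chosen after its values were seen and is given without a test.

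**Figure D3:**
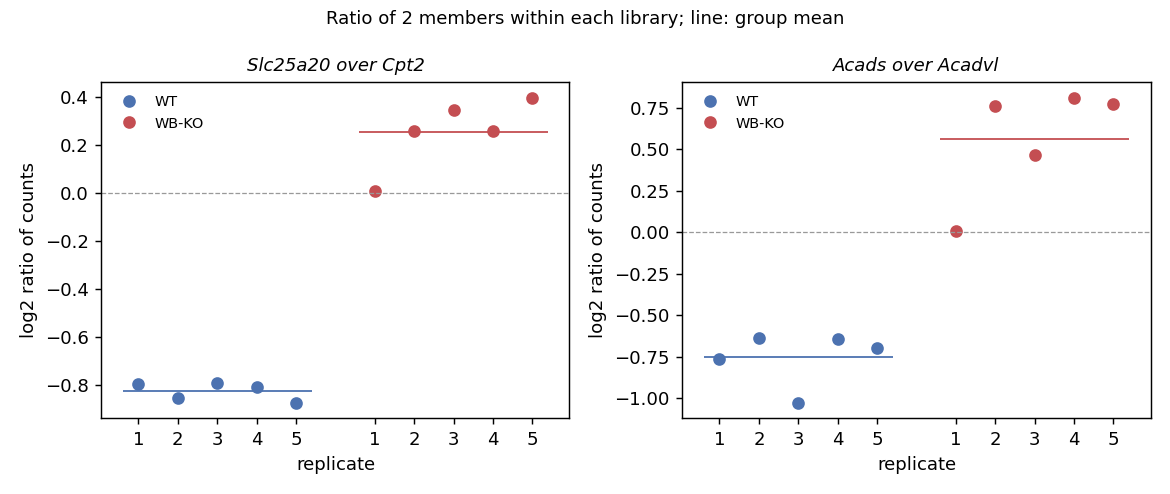
Log2 ratio of the counts of *Slc25a20* to *Cpt2* and of *Acads* to *Acadvl* in each of the 10 libraries, with a line at each group mean. WT libraries lie below 0 and WB-KO libraries above 0 in both panels, and WB-KO replicate 1 is the closest to WT.

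The acyl-CoA dehydrogenases, which open each cycle, are described in the order of the chain length they take. *Acadvl*, for very long chains, fell from 113 ± 18.1 to 70.8 ± 12.6 CPM (± SD of 5 mice; log2 fold change -0.67, SE 0.14, edgeR adjusted p = 0.00584). Its WB-KO replicate 1 was within the WT range at 92.7 CPM, and the other 4 were below it. *Acadl*, for long chains, did not pass (log2 fold change -0.31, 95% interval from -0.77 to 0.14). *Acadm*, for medium chains, had 162 ± 9.25 and 198 ± 32.3 CPM and an adjusted p of 0.0789 by edgeR (log2 fold change 0.29), which was 0.0426 without WB-KO replicate 2. *Acads*, for short chains, had 68.9, 71.9, 68.7, 59.0 and 63.3 CPM in WT and 93.1, 117.5, 88.3, 107.5 and 114 CPM in WB-KO mice. All WB-KO libraries lay above the WT range, 1.57-fold higher (log2 fold change 0.65, SE 0.10, edgeR adjusted p = 0.00146). Scaled to the counts of the epithelial markers the call was lost (log2 fold change 0.40, adjusted p = 0.0544). The log2 ratio of *Acads* to *Acadvl* counts ran from -1.03 to -0.64 in WT libraries and from 0.01 to 0.81 in WB-KO libraries, and this pair too was chosen after its values were seen. *Etfdh*, which passes the electrons of all these enzymes to the respiratory chain, fell by 0.68 on the log2 scale, from 120 ± 19.1 to 74.8 ± 13.5 CPM (SD, n = 5 each; adjusted p = 0.00627 by edgeR), without overlap. Over all alternatives its log2 fold change ranged from -0.95 to -0.21.

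*Hadha* and *Hadhb* encode the α and β subunits of the trifunctional protein, which carries out the last 3 steps on long chains. They lie head to head on chromosome 5, and both fell. *Hadha* had 419.6, 472, 490.5, 324 and 363 CPM in WT and 355, 302, 249, 245.5 and 298 CPM in WB-KO mice, a log2 fold change of -0.51 (SE 0.15, edgeR adjusted p = 0.0242). *Hadhb* had 199, 219, 219.8, 150.2 and 172 CPM in WT and 149, 119, 109, 149.7 and 139 CPM in WB-KO mice, a log2 fold change of -0.53 (SE 0.14, edgeR adjusted p = 0.0144). The *Hadhb* groups did not overlap, but the lowest WT library and the highest WB-KO library differed by less than 1 CPM. For *Hadha*, WB-KO replicate 1 lay within the WT range, and its call was lost when 1 of WT replicates 1 to 3 or WB-KO replicate 3 was left out (adjusted p between 0.0520 and 0.0631). Over all alternatives the log2 fold change of *Hadha* ranged from -0.79 to -0.04.

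The gene models of *Hadha* (minus strand, end at 30155162) and *Hadhb* (plus strand, start at 30155248) leave 85 bases between them, which are shown because both genes are read outward from this stretch. It is chr5:30155163-30155247 of GRCm38, plus strand, pieced together from the RefSeq promoter windows of both genes, with matches to the GC box GGGCGG (either strand) in capitals.
Hadha and Hadhb: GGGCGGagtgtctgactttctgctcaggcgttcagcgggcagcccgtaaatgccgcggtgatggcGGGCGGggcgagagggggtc
The stretch holds 2 GC boxes, and 35.7% of all 32851 RefSeq promoter windows of 300 bases hold at least 1. A match is a description of the letters and not a measured site.

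Of the other mitochondrial enzymes, 3 fell. *Hadh*, the short-chain 3-hydroxyacyl-CoA dehydrogenase, had 847, 904, 941, 732 and 730.5 CPM in WT and 588, 345, 287, 471 and 389 CPM in WB-KO mice. This is 2.0-fold lower without overlap (log2 fold change -1.0, SE 0.19, edgeR adjusted p = 0.00362). *Decr1*, the reductase for polyunsaturated chains, fell from 147 ± 17.0 to 79.4 ± 16.5 CPM (± SD of 5 mice), with no overlap (log2 fold change -0.89, adjusted p = 0.00190 by edgeR). *Acaa2*, the medium-chain thiolase, had 265 ± 67.6 and 140 ± 68.0 CPM, and 2 of its 5 WB-KO libraries, replicates 1 and 4 with 224 and 202 CPM, lay within the WT range. Its log2 fold change was -0.93 (SE 0.31, edgeR adjusted p = 0.0437), a call that was kept only when WT replicate 5, WB-KO replicate 1 or WB-KO replicate 4 was left out. Without both of the latter it was -1.55. *Eci1*, the isomerase for unsaturated chains, was not past the threshold (49.5 ± 11.8 and 42.9 ± 3.90 CPM, 95% interval from -0.53 to 0.12).

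Beyond the members, 18 further genes of mitochondrial oxidation and ketone metabolism passed the filter, of which 3 were higher, 3 were lower and 12 did not pass, a share near the 29.9% called over all genes. *Acat1*, the acetoacetyl-CoA thiolase, fell by 0.91 on the log2 scale (adjusted p = 0.000323 by edgeR) and *Etfa*, a subunit of the electron transfer flavoprotein, by 0.55 (adjusted p = 0.00502). *Oxct1*, which lets a cell burn ketone bodies, had the largest of the 3 rises, from 105 ± 23.8 to 292 ± 115 CPM (± SD of 5 mice; log2 fold change 1.47, adjusted p = 0.00364 by edgeR). The median log2 fold change of these 18 genes was 0.02.

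In the peroxisome, the bifunctional enzyme gene *Ehhadh* (chromosome 16, minus strand, from 21761287 to 21787807) had 231, 229.9, 224, 143 and 155 CPM in WT and 119.5, 71.3, 67.2, 57.9 and 76.9 CPM in WB-KO mice. It was 2.50-fold lower with no overlap (log2 fold change -1.32, SE 0.21, edgeR adjusted p = 0.00175), and with the smooth muscle covariate the value was -0.55 and not past the threshold. The thiolase gene *Acaa1a* (chromosome 9, plus strand, from 119339676 to 119350299) had 307, 367, 350.0, 314 and 346 CPM in WT and 269, 191, 166, 291 and 212.5 CPM in WB-KO mice. These did not overlap either (log2 fold change -0.58, SE 0.15, edgeR adjusted p = 0.0173). Its neighbour and close relative *Acaa1b* (minus strand, from 119148023 to 119157093) had 38.5, 40.8, 62.0, 13.7 and 30.0 CPM in WT and 13.1, 7.07, 2.48, 27.1 and 2.36 CPM in WB-KO mice. Here 4 of 5 WB-KO libraries lay below every WT library, and the log2 fold change of -1.82 had an adjusted p of 0.0508 by edgeR and of 0.0347 by DESeq2. Without WB-KO replicate 4 it was -2.57 (adjusted p = 0.0105 by edgeR), and without WT replicate 4 it was -2.05 (adjusted p = 0.0396).

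Reads of the 2 thiolase genes can be confused, since their coding sequences of 1272 bases (GENCODE M21) are 96.5% identical and 24.1% of all 100-base windows of *Acaa1a* also occur in *Acaa1b*. Bases 259 to 318 of the coding sequence, the 60-base window with the most differences, show where reads tell them apart, with the 11 differing bases in capitals.
Acaa1a: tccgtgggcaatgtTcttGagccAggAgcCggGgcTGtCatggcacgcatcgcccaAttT
Acaa1b: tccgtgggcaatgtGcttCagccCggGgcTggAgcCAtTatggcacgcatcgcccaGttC
The log2 ratio of *Acaa1b* to *Acaa1a* counts ranged from -4.52 to -2.50 in WT and from -6.49 to -3.42 in WB-KO libraries. The sources used here give neither the read length nor the handling of shared reads.

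*Ech1* and *Eci2*, isomerases found in both organelles, did not pass. *Ech1* had 123 ± 7.61 and 119 ± 20.6 CPM (± SD of 5 mice), with a 95% interval of its log2 fold change from -0.31 to 0.21, and *Eci2* had 37.0 ± 3.98 and 34.5 ± 4.86 CPM, with an interval from -0.36 to 0.15.

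The wider peroxisome was counted from a list of 32 genes that holds no member. Of the 30 tested, 17 were lower and 0 were higher at an adjusted p under 0.05 by edgeR, and 13 did not pass, against 13.9% lower over all genes. At an unadjusted p under 0.05 in the edgeR fit, 1 was higher (*Abcd2*, a peroxisomal transporter). Without any filter on low counts edgeR gave 17 past the threshold (16.7% of all genes), and DESeq2 gave 18 (22.2%). With 1 mouse left out the number ranged from 15 to 20 (20.2% to 34.7% of all genes). It was 10 with the epithelial covariate (22.2% of all genes) and 0 with the smooth muscle covariate (0.115%). *Scp2*, the sterol carrier protein and thiolase, fell by 0.98 on the log2 scale (edgeR adjusted p = 0.00332) and *Cat*, the catalase that removes the hydrogen peroxide made by the cycle, by 1.42 (adjusted p = 0.00309). *Ephx2*, a soluble epoxide hydrolase, had the lowest value of the list, from 491 ± 209 to 50.5 ± 26.0 CPM (log2 fold change -3.28, adjusted p = 0.000459 by edgeR). The median log2 fold change was -0.53 over these genes.

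**Figure D4:**
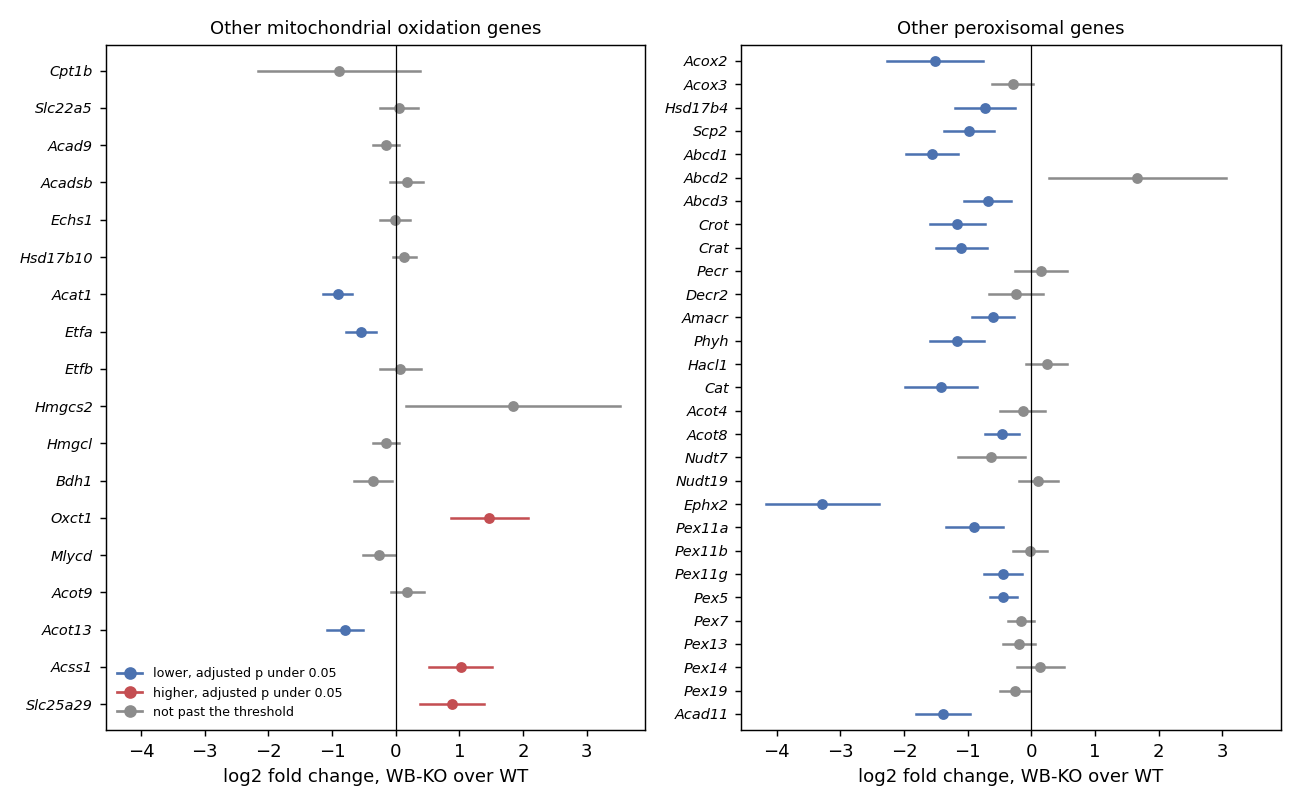
Log2 fold change of WB-KO over WT mice, with 95% confidence intervals of the edgeR model, for 18 other genes of mitochondrial oxidation and 29 of the 30 other peroxisomal genes that were tested. The mitochondrial genes lie on both sides of 0 with 3 past the threshold on each side, and the 16 peroxisomal genes drawn past the threshold are all to the left of 0.

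The other PPARA targets tested, *Plin2*, *Angptl4*, *Vnn1* and *Acot1*, did not pass. *Plin2*, which coats lipid droplets, had 78.5 ± 11.5 and 74.6 ± 14.1 CPM (± SD of 5 mice), with a 95% interval of its log2 fold change from -0.38 to 0.23. *Angptl4*, a secreted inhibitor of lipoprotein lipase, had 12.7, 42.7, 21.7, 9.49 and 6.77 CPM in WT and 32.8, 16.2, 13.6, 43.9 and 21.5 CPM in WB-KO mice. Its groups overlapped, and the interval ran from -0.61 to 1.53. *Vnn1*, a pantetheinase, had 306 CPM in WB-KO replicate 1 and between 42.1 and 126 CPM in the other WB-KO libraries, and its log2 fold change of 0.48 became -0.10 without that replicate. *Pdk4*, counted among the mitochondrial members, is the kinase that holds back pyruvate dehydrogenase, and it had 8.65, 62.8, 32, 4.83 and 9.46 CPM in WT and 4.73, 8.96, 5.12, 15.9 and 3.04 CPM in WB-KO mice. WT replicates 2 and 3 stood above all other libraries. With an edgeR adjusted p of 0.0950, the log2 fold change was -1.63, and it was -0.86 without WT replicate 2.

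*Acot1*, a cytosolic thioesterase that releases free fatty acids, and its mitochondrial relative *Acot2* had few counts. *Acot1* had 3.94 ± 2.03 and 3.77 ± 1.5 CPM and *Acot2* 8.11 ± 3.25 and 7.4 ± 3.36 CPM (± SD of 5 mice), with 95% intervals from -0.87 to 0.75 and from -0.85 to 0.60. Their coding sequences are 95.6% identical, and 31.0% of the 100-base windows of *Acot1* also occur in *Acot2*, so that reads may be shared. In the same family, *Acot4* and *Acot6* were not past the threshold (log2 fold changes -0.14 and -0.33), *Acot3* had under 1 CPM on average in both groups, and *Acot5*, also below the filter, had 1 count in all in WT and 126 in WB-KO mice.

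*Cyp4a10*, an ω-hydroxylase of fatty acids in the endoplasmic reticulum and a strong PPARA target in liver, was the only member below the filter. It had 2.07, 6.43, 9.09, 0.220 and 0.783 CPM in WT replicates 1 to 5 and was at 0 in all 5 WB-KO libraries, 315 counts against 0 (exact permutation test over all splits of 5 and 5, p = 0.00794, the smallest it can give). Set against 3 counts over the 5 WB-KO libraries, the limit that a count of 0 allows, it was at least 113-fold lower, and at least 71-fold lower without WT replicate 3, which held 156 of the 315 counts. These bounds cover counting error only, since reads are not independent molecules, and not the spread between WT mice. DESeq2, edgeR without a filter and edgeR with a minimum mean count of 10 tested it and gave adjusted p-values of 6.77e-07, 0.00637 and 0.0107. It shares 13.8% of its 100-base windows with *Cyp4a32* and 7.56% with *Cyp4a31*, which had at most 0.360 CPM on average in either group, and none with *Cyp4a14*.

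From a list of 24 further PPARA targets, 20 were tested, 4 of them higher, 7 lower and 9 not past the threshold, against 16.0% higher and 13.9% lower over all genes. *Fabp1*, the fatty acid binding protein of liver and proximal gut, fell by 5.44 on the log2 scale (edgeR adjusted p = 0.000930). Its WB-KO libraries ranged from 4.03 to 125.1 CPM, and the log2 fold change was -6.11 without WB-KO replicate 2, which held the most. *Fabp2*, the intestinal binding protein, was not past the threshold (4355 ± 664 and 3679 ± 2196 CPM, ± SD of 5 mice), nor was *Ucp2*, a mitochondrial carrier (log2 fold change -0.32). The median log2 fold change of the 20 genes was -0.28. Scaled to the counts of the epithelial markers, 7 of these genes were past the threshold in place of 11, a share near the 33.2% of all genes called under that scaling.

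The members also shared an order between mice of 1 group. Of the 32 members, 20 had their 2 highest WT values in replicates 2 and 3, an order found in 14.6% of all genes tested, and 17 had their 2 lowest in replicates 4 and 5 (18.9% of all genes). Some markers of gut position followed a like order, named here after their values were seen. The proximal markers *Onecut2* and *Cck* had 124 and 57.0 CPM in WT replicate 2 and 91.5 and 60.6 CPM in replicate 3, against 18.1 and 17.8 CPM in replicate 4 and 20.1 and 19.0 CPM in replicate 5. They were picked from the list of 8, not all of which kept this order. *Cybrd1* had 9.30, 10.7, 7.90 and 11.4 CPM in WT replicates 2 to 5, the highest in replicate 5. The summed ileum markers ran the other way, with 757, 572, 975 and 1335 CPM in replicates 2 to 5. Most of that WT sum was 1 gene, *Cubn* (534.5, 371, 763.5 and 1098 CPM), whose log2 fold change between the groups was only -0.07. *Fabp6* had at most 1.73 CPM in WT libraries, so that the sum does not show which WT libraries were more ileal. The summed proximal markers, most of them *Lct*, were between 4104 and 4426 CPM in all 5. The part of these markers in the order of the members was not tested. WT replicate 3 was the highest for 17 members and WT replicate 4 the lowest for 18. The widest WT spread was that of *Cyp4a10* and *Pdk4*, whose highest library held 41.4 and 13.0 times the CPM of the lowest. Among WB-KO mice, replicate 1 was the highest for 14 and replicate 4 for 12 of 31 members, and replicate 3 was the lowest for 15. WB-KO replicate 4 was highest for, among others, *Pdk4*, *Acot1*, *Acot2*, *Acaa1b*, *Angptl4*, *Plin2* and *Acadm*, and lowest for *Ppara*, *Ppargc1a*, *Acsl5* and *Ehhadh*. These orders are descriptions of 5 mice per group, and the libraries share their depth and composition across genes.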

How the data were processed

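RNA-seq libraries from proximal small intestine of 5 WT and 5 WB-KO mice were used, 1 per mouse, made with a SMARTer mRNA-Seq kit. Whole-number read counts for each Ensembl gene, without normalization, are what the authors deposited. The submitters' processing notes name FastQC 0.11.9, Trimmomatic, HISAT2 2.0.4, SAMtools 1.3.1 and DESeq2 1.14.1 with the builds GRCm38 and mm10, while the sources used here do not give the read counter, annotation or strand setting, so that overlapping genes (such as *Zdhhc6* on the other strand of *Acsl5*) may share reads. Symbols came from GENCODE M21 (GRCm38) for 34490 of 35275 IDs.

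Groups were compared in R 4.3.3 with edgeR 4.0.16 (TMM scaling, filterByExpr with a minimum count of 10 and a minimum total of 15, quasi-likelihood test, Benjamini-Hochberg adjustment over all 15610 genes tested, threshold 0.05). Intervals and standard errors come from that model. *Cyp4a10*, below the filter, was compared by an exact two-sided permutation test of the mean log2 CPM (prior count 2). CPM values are scaled with the TMM factors, and CPM per kilobase uses the summed exon length of a gene. The fits were tested on simulated counts.

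Alternatives were RLE scaling, library size only, scaling to epithelial markers, DESeq2 1.42.0, no filter, a minimum mean count of 10, robust dispersion, the replicate block, an epithelial or smooth muscle score as a covariate, and leaving out each mouse. The members and lists were chosen with earlier results of these data known. Named genes were all members, *Slc39a14*, close relatives of members (*Acot1* to *Acot6* and the *Cyp4a* genes, not all of which share sequence windows), the most abundant gene of a marker list, and from each list at most the 3 most abundant genes and called genes with an absolute log2 fold change above 2. *Abcd2*, *Onecut2*, *Cck*, *Cybrd1*, *Cubn*, *Ppargc1b*, *Ppard*, *Pparg* and *Rxra*, outside that rule, were named after their values were seen. Nothing says that mice came from separate litters or cages, so that p-values measure the spread between these mice. A result for 1 gene of the other peroxisomal list is not reported here.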

Additional observations from a re-analysis of the deposited data

Results flagged for a closer look

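In 5 of 63 groups of 5 libraries, a single library stood further from the others than Dixon's 95% critical value of 0.71 allows, and chance flags about 1 in 20 such groups. *Acadvl*, the very long-chain acyl-CoA dehydrogenase, had 92.69 CPM in WB-KO replicate 1 and 61.3 to 69.3 CPM in the other 4 WB-KO mice. *Slc27a4*, the fatty acid transport protein, had 1029 CPM in the same WB-KO replicate 1 and 557 to 655 CPM in the others. *Acot2*, the mitochondrial thioesterase, had 13.23 CPM in WB-KO replicate 4 and 4.92 to 6.98 CPM in the others. *Decr1*, the reductase for polyunsaturated chains, had 117.8 CPM in WT replicate 4 and 149.9 to 160.5 CPM in the others. *Plin2*, the lipid droplet protein, had 99.01 CPM in WT replicate 3 and 71.2 to 75.5 CPM in the others. *Acadvl*, *Slc27a4* and *Decr1* kept their calls with each of the 10 mice left out in turn.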

How the results depend on the processing

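With 1 mouse left out at a time, 1 to 3 members were higher and 12 to 16 lower, 13 of the 17 called members kept the call in all 10 fits, and 0 of the called members changed direction. Called genes ranged from 3207 to 5507 over all genes, 6 to 9 over mitochondrial, 2 to 3 over peroxisomal and 0 to 1 over other PPARA target members, 6 to 8 over other mitochondrial, 15 to 20 over other peroxisomal, 9 to 12 over other PPARA target and 5 to 11 over receptor genes. With a smooth muscle score as a covariate, 18 genes in all and 0 members in any group passed, nor did any gene of the other lists (0 each). That score does not overlap between the groups. With an epithelial score as a covariate 1 member was higher and 8 lower (4 mitochondrial, 1 peroxisomal; 13.2% and 9.01% of all genes), with 10 other peroxisomal and 6 receptor genes. Scaled to epithelial marker counts, 0 members were higher and 16 lower (6.03% and 27.1% of all genes), 7 other PPARA targets passed, and 18.2% of all calls were higher, with the median of all genes at -0.22. With library size only, 3 were higher and 13 lower (22.9% and 10.2% of all genes), and 69.2% of all calls were higher against 53.5% with TMM, with the median at 0.15 in place of 0.03. DESeq2, no filter and the mean count filter each gave 1 other PPARA target member, *Cyp4a10*. With an absolute log2 fold change above 1 asked for, 0 members were higher and 5 lower (6.43% and 4.72% of all genes). Without WB-KO replicates 1 and 4, an alternative chosen after seeing the data, 1 was higher and 16 lower (15% and 14.1% of all genes), with 1 other PPARA target. The bound of *Cyp4a10* with 1 WT mouse left out, also chosen after seeing the data, ranged from at least 71-fold to at least 141-fold lower.

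Changes of direction were found only among members that did not pass. *Cpt1a* became -0.24 scaled to epithelial counts, -0.002 with no filter and -0.043 without WB-KO replicates 1 and 4, and ranged from -0.076 to 0.067 with 1 mouse left out. Library size only gave 0.010 for *Acot2*, 0.073 for *Ech1*, 0.024 for *Eci2*, 0.10 for *Acsl1*, 0.065 for *Acot1* and 0.054 for *Plin2*. The epithelial covariate gave 0.26 for *Acadl*, 0.73 for *Acot2*, 0.54 for *Pdk4*, 0.062 for *Ech1*, 0.14 for *Eci2*, 0.63 for *Acsl1*, 0.63 for *Acot1*, 0.18 for *Plin2* and -0.17 for *Vnn1*. Without WB-KO replicates 1 and 4, *Vnn1* was -0.22 and *Angptl4* -0.12. With 1 mouse left out, the range was -0.44 to 0.076 for *Acot2*, -0.13 to 0.027 for *Ech1*, -0.27 to 0.15 for *Acsl1*, -0.30 to 0.26 for *Acot1*, -0.18 to 0.019 for *Plin2* and -0.10 to 0.70 for *Vnn1*. The cause of these changes was not tested.

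Replicate numbers are shared by the groups. The correlations of same-numbered mice were 0.016, 0.002, -0.091, 0.177 and -0.167, and only replicate 4 correlated best with its own number. These values cannot show whether mice of the same number shared a litter or cage. With the replicate block, 1 member was higher and 12 lower, 6 mitochondrial members passed in either direction, and 3848 genes passed in all.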
